A study of Mus musculus with 8 samples.

Results

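The genes described here encode surface molecules by which memory and activated T cells are recognised or counted: Cd44, Cd69, Ly6c1, Ly6a, Spn, Cd7, Cd38, Cd48, Cd52 and Cd53. They were taken by the gene symbol that the platform annotation gives to each probe set, a group of oligonucleotides on the array that together read out a transcript. Of the 10 genes, 7 had probe sets listed for them alone, 12 probe sets of the 45101 on the array, and 11 of these 12 were bright enough to be tested. The probe set listed for Ly6c1 is listed for its near neighbour Ly6c2 as well, so its signal belongs to neither gene alone and is given apart from the 12. Ly6a and Cd38 are not analysed here, since the annotation used names no probe set for them.

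The samples came from 4 old female mice, each of which gave a clonal expansion of CD8 memory T cells, the progeny of a single cell that share a T cell receptor, and a polyclonal CD8 memory sample as its partner. Cells of spleen and lymph nodes were sorted as CD8+ CD122+ MHC II- in every sample, with the V beta chain of the clone present in the expansion and absent in the partner (Vb3, Vb8.1/8.2, Vb8.3 and Vb14 for mice 1 to 4). Age was 20 months for the first pair of mice and 23 months for mice 3 and 4, and the strain was C57BL/10SnJ except for mouse 4, a B10.BR. Expansion 1 is the only sample of the integrin alpha4-high subclass, and expansions 2, 3 and 4 are alpha4-low. The sample descriptions give expansions 3 and 4 the numbers 4 and 5; the numbers of the titles are used here, and the sorted V beta chain ties each expansion to its partner. The effect of a clone cannot be told apart from that of its sample. A mouse or strain effect shared by both samples of a pair cancels in their difference. A mouse or strain effect that is not shared cannot be told apart from the pair. None of the genes described here was used for sorting. RNA was amplified in a double procedure and hybridised to 1 array per sample. Signals are linear MAS5 intensities scaled to a common trimmed mean, and log2 differences are taken as log2(signal + 5) in the expansion minus the same in the partner.

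CD44 is a receptor for hyaluronan that naive T cells carry at a low level and memory T cells at a high level, and Ly6C and Ly6A are small GPI-anchored proteins that also go up on many memory CD8 cells. CD69 appears within hours of antigen receptor or interferon signals and removes the egress receptor S1PR1 from the surface, which holds the cell in the tissue. CD43 (the product of Spn) is a long sialylated mucin whose glycosylation changes with activation, CD48 is a ligand of CD2 and CD244, CD53 is a tetraspanin of leukocytes, CD52 is a short glycosylated GPI-anchored peptide of lymphocytes, and CD7 is an immunoglobulin-family receptor of T and NK cells.

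Sort purity was 91 to 98% for the expansions and 97, 75, 66 and 97% for polyclonal samples 1 to 4. The T cell genes Cd8a and Cd3e were above background, a level taken from unspiked bacterial control probe sets (33.7 to 61.9 by array), on all 8 arrays. Of the NK cell genes, Ncr1 was above it on none, Klrb1b on 2, Fcer1g on 5, Tyrobp on 6 and Eomes on 8 arrays. Cd4 exceeded it on 2 arrays, polyclonal samples 2 and 3, at signals of 43.9 and 101. Foxp3 and Cd40lg, of the same list as Cd4, exceeded it on 6 and 7 arrays, at signals of at most 119 and 131. The summed signal of 8 B cell markers was 3153 to 4122 in expansions and 2262 to 4741 in polyclonal samples. Its largest part was Cd22, at 2333 to 2708 and 1027 to 3385. The summed signal of 4 neutrophil markers was 1072 to 9717 in expansions and 1487.7 to 7628 in polyclonal samples. The sum of 5 NK cell markers ran from 8621 to 21561 and from 12167 to 17672 but was nearly all Eomes (8505 to 21207 and 11801 to 17451), which memory CD8 cells express too. Those of 6 monocyte and macrophage markers ran from 1422 to 2890 and from 670.2 to 1773. Sums for 4 dendritic cell genes were 75.9 to 207 and 70.2 to 219. The ranges overlapped between expansions and polyclonal samples, but within pairs the neutrophil sum was higher in the expansion in 3 of 4 pairs (4445 against 2426, 9291 against 1917 and 9717 against 7628 in pairs 1, 2 and 4, and 1072 against 1488 in pair 3). The monocyte and macrophage sum was also higher in 3 of 4, at 2890 against 1456, 2181 against 670 and 1422 against 1106 in pairs 1 to 3, and 1443 against 1773 in pair 4. Over all pairs 2 of 4 neutrophil and 1 of 4 monocyte and macrophage genes tested had an unadjusted p under 0.05 in limma. The share over all tested probe sets was 3.25%. After adjustment 0 of these genes passed, as did 0% of all tested probe sets. The part of these cells in the results was not tested. The gene behind the subclass names, Itga4, was at 11824 in expansion 1, against 3182 in polyclonal sample 1, and at 120 to 435 in the alpha4-low expansions against 1559 to 8221 in theirs.

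No member gene rose or fell by the threshold of a limma adjusted p under 0.05 in any comparison. In the comparison of all 4 expansions with their partners, 0 of 11 probe sets passed, as did 0% of the 22518 tested on the array (limma, 731 at an unadjusted p under 0.05). Among the 11 members 0 had an unadjusted p under 0.05, against 3.25% of all tested probe sets. For the alpha4-low pairs 0 of 11 passed (background 0.0533%, 12 probe sets), and 2 had an unadjusted p under 0.05 (background 5.11%). For the difference between the alpha4-low pairs and the alpha4-high pair 0 of 11 passed (background 0.0533%), with 0 at an unadjusted p under 0.05 (background 6.57%). The limma adjusted p of the members was 0.9998 or more over all pairs, 0.965 to 0.997 in the alpha4-low pairs and 0.906 to 0.9997 for the difference. The median log2 difference of the 11 probe sets was 0.05 over all pairs and -0.07 in the alpha4-low pairs, beside -0.04 and -0.07 for all tested probe sets.

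Signs were mixed. Over all pairs the mean difference was positive for 7 members and negative for 4 (background 46.1% and 53.9%). In the alpha4-low pairs it was positive for 5 and negative for 6 (44.5% and 55.5%), and the difference between subclasses was positive for 6 and negative for 5 (45.7% and 54.3%). No member was higher in all 4 expansions (0 of 11, background 4.79%) or lower in all 4 (0 of 11, 6.05%). In the 3 alpha4-low expansions 4 members were always higher (9.99%) and 2 always lower (15.0%). The log2 difference of pair 1 lay outside the range of the alpha4-low pairs for 7 of 11 members (49.6%).

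The spread between mice differed from member to member. The median SD of log2 signal over the 4 polyclonal samples was 0.35 for the 11 probe sets and 0.55 for all tested ones, without matching for signal, and the members' own SDs ran from 0.12 for Cd44 1434376_at to 0.82 for Cd53 1459744_at. Over the 3 alpha4-low expansions the corresponding medians were 0.36 and 0.56. Within a pair, 0 of the 11 were at least 2-fold apart in mouse 1 (background 21.6%), 3 in mouse 2 (28.6%), 3 in mouse 3 (25.9%) and 1 in mouse 4 (16.9%). Counts were near the background in pairs 2 and 3 and under it in pair 1.

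For several members the pairs of the subclasses differed in opposite directions. Of the 11 probe sets 6 (54.5%) lay on the same side of 0 in all 3 alpha4-low pairs and on the other side in pair 1, against 14.2% of all tested probe sets. Those with higher values in the alpha4-low expansions and a lower one in expansion 1 were the 2 of Cd53, that of Cd69 and the brightest of Cd44 (4 of 11, background 5.20%). The 2 with the opposite pattern belonged to Cd48 and Spn (background 8.96%). With quantile normalization the count was again 6, with Cd7 in place of the bright Cd53 probe set, and with median centring it was 4, without Cd48 and that Cd53 probe set. No difference between subclasses passed the test for any of them, the alpha4-high subclass has a single pair, and the 2 probe sets of Cd53 read the same gene. The rule also counts log2 differences near 0. Among them were 0.03 in pair 4 for Cd53 1448617_at, -0.11 in pair 2 for Cd48 and -0.13 in pair 4 for Spn 1422133_at. The members were moreover chosen with earlier results of these data known.

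**Figure D1:**
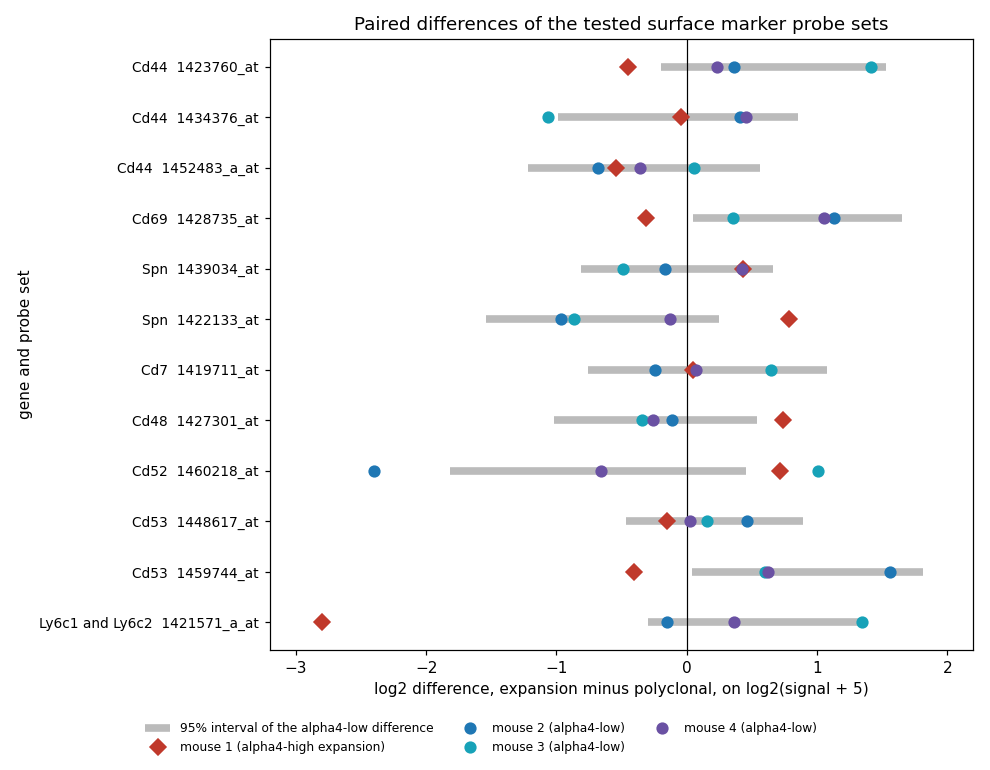
Log2 difference between expansion and polyclonal partner (x axis, on log2(signal + 5)) for each tested probe set (y axis) in mouse 1 (diamonds) and mice 2 to 4 (circles); grey bars are limma's 95% intervals of the alpha4-low difference. Most points lie within 1 log2 unit of 0; Cd52 in mouse 2 (-2.40) and the probe set shared by Ly6c1 and Ly6c2 in mouse 1 (-2.80) lie farthest out.

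Cd44 was read by 4 probe sets, and they did not move together. The brightest, 1423760_at, gave signals of 3502, 5588, 7382 and 4948 in expansions 1 to 4 and of 4781, 4340, 2773 and 4219 in the polyclonal partners. All 3 alpha4-low expansions were above all 4 polyclonal samples, and expansion 1 was below its partner. Mean signal was 5973 ± 1262 in the alpha4-low expansions and 3777 ± 872 in their partners (SD, n = 3 each), and a separation of these groups without overlap occurred for 2 of 11 members and 8.10% of all tested probe sets. The log2 difference of 0.67 (SE 0.40, 95% interval -0.20 to 1.53) did not pass (limma adjusted p = 0.970). It was 0.30 without pair 3 and 0.051 with sort purity as a covariate.

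The next probe set of Cd44, 1434376_at, read 3566, 5189, 1683 and 5811 in expansions 1 to 4 against 3670, 3918, 3520 and 4243 in the partners. It was higher in expansions 2 and 4 and lower in expansion 3, the sample in which the brightest probe set was highest. In pair 3 the same gene thus had a log2 difference of 1.41 by 1423760_at and of -1.06 by 1434376_at. Over the alpha4-low pairs 1434376_at had a difference of -0.07 (95% interval -0.99 to 0.85). A dimmer probe set, 1452483_a_at, read 179, 215, 206 and 213 in the expansions and 262, 347, 198 and 275 in the partners, lower in 3 of 4 pairs, with a difference of -0.33 in the alpha4-low pairs (95% interval -1.22 to 0.57). The last, 1443265_at, lay between 1.34 and 32.8, under background on all 8 arrays, and was not tested. Pearson's r between the log2 values of the 2 brightest was -0.33 over the 8 arrays, as a description. Cd44 transcripts are spliced in many forms, and which forms each probe set reads was not examined.

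Cd69 tended to higher signal in the alpha4-low expansions. It read 4267, 6860, 9675 and 12113 in expansions 1 to 4 and 5290, 3136, 7559 and 5823 in polyclonal samples 1 to 4. Expansions 2 and 4 were 2.19-fold and 2.08-fold above their partners, expansion 3 was 1.28-fold above, and expansion 1 was 1.24-fold below. The alpha4-low mean was 9549 ± 2629 against 5506 ± 2229 (SD, n = 3 each), and the groups overlapped because expansion 2 lay under polyclonal sample 3. The log2 difference was 0.85 (SE 0.37, 95% interval 0.04 to 1.65) and did not pass over all probe sets (limma adjusted p = 0.965). The difference between subclasses was 1.16 (SE 0.74, limma adjusted p = 0.954).

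Cd53 had the 2 remaining probe sets with higher values in each alpha4-low pair. The bright 1448617_at read 22295, 26906, 15639 and 18241 in expansions 1 to 4 and 24716, 19583, 14026 and 17893 in the partners. Its differences were small, between -0.15 and 0.46 over the 4 pairs, and its alpha4-low difference was 0.21 (95% interval -0.46 to 0.89), or -0.03 after quantile normalization. Of the member probe sets this was among the 3 that stayed within a 2-fold range over all 8 arrays, against 10.2% of all tested.

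The dimmer Cd53 probe set, 1459744_at, read 2810, 2787, 2621 and 3373 in expansions 1 to 4 and 3719, 944, 1732 and 2193 in the partners. The expansions were alike, and the partners ranged over 3.94-fold. Mean signal was 2927 ± 395 in the alpha4-low expansions and 1623 ± 631 in their partners (SD, n = 3 each), with no overlap between them. The log2 difference was 0.92 (SE 0.41, 95% interval 0.04 to 1.81), which did not pass (limma adjusted p = 0.965). Polyclonal sample 2, at 75% purity, supplied the lowest value, 944, and polyclonal sample 3, the least pure at 66%, read 1732. Without pair 2 the difference was 0.61. With sort purity as a covariate the difference of this probe set over all pairs was 0.25, beside 0.59 in the main fit, and no member passed either.

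Cd48 separated expansion 1 from the other arrays more than it separated expansions from partners. It read 12782, 5105, 4839 and 4028 in expansions 1 to 4 and 7678, 5523, 6149 and 4833 in polyclonal samples 1 to 4. Mouse 1 gave the 2 highest values, and expansion 1 was 1.66-fold above its partner. The alpha4-low expansions were each a little below their partners, by log2 differences of -0.11, -0.35 and -0.26, with means of 4657 ± 561 and 5502 ± 658 (SD, n = 3 each). The alpha4-low difference of -0.24 (SE 0.36, 95% interval -1.02 to 0.54) and the difference between subclasses of -0.98 (SE 0.72) did not pass (limma adjusted p = 0.993 and 0.989).

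Cd52 had the widest range of the 11 tested member probe sets, 5.43-fold over the 8 arrays. It read 11265, 3699, 20100 and 3810 in expansions 1 to 4 and 6864, 19506, 9994 and 6004 in the partners. Pair 2 was 5.27-fold lower in the expansion, pair 4 was 1.58-fold lower, and pairs 1 and 3 were 1.64-fold and 2.01-fold higher. The mean alpha4-low log2 difference of -0.68 had an SE of 0.52 (limma adjusted p = 0.989). Without pair 3 it was -1.53 and passed (limma adjusted p = 0.0360), and without pair 2 it was 0.18. The fit without pair 3 rests on pairs 2 and 4, whose log2 differences were -2.40 and -0.66. It leaves fewer residual degrees of freedom than the 2 of the main fit, so this pass leans on variance borrowed from other probe sets. The summed signal of 6 T and CD8 cell markers ran the same way as Cd52 in each pair, at 35409 in expansion 1 against 30192 in its partner, 26163 against 39329 in pair 2, 46135 against 39741 in pair 3 and 20697 against 26053 in pair 4. Cd8a was the largest part of that sum, at 13073 to 30815 by array, and was slightly lower in expansion 1 than in its partner (log2 difference -0.07). Cd3e and Cd3d went the same way as Cd52 in each pair. Cd8a, Cd3g, Cd8b1 and Il2rb did not do so in every pair. The part of T cell content in the Cd52 values was not tested.

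Spn was read by a bright and a dim probe set. The bright 1439034_at read 18309, 11617, 14037 and 15101 in expansions 1 to 4 and 13548.5, 13051, 19725 and 11228 in the partners, higher in pairs 1 and 4 and lower in pairs 2 and 3. All 8 values lay within 1.76-fold of each other, and the alpha4-low difference was -0.08 (95% interval -0.81 to 0.66). The dim 1422133_at read 467, 278, 309 and 189.8 in the expansions and 269.6, 546, 567 and 208 in the partners. It was 1.73-fold higher in expansion 1 and lower in each alpha4-low pair, by log2 differences of -0.96, -0.86 and -0.13. Its difference between subclasses, -1.43 (SE 0.82), did not pass (limma adjusted p = 0.906). With sort purity as a covariate it was -0.79.

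Cd7 was dim, at 150.4, 271, 311 and 127 in expansions 1 to 4 and 145, 322, 196 and 121 in the partners, but above background on all 8 arrays. In mice 1, 2 and 4 the samples of a pair lay within 1.19-fold of each other, while levels differed between mice. Expansion 3 was 1.58-fold above its partner. The alpha4-low difference was 0.16 (95% interval -0.76 to 1.07).

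The probe set listed for both Ly6c1 and Ly6c2, 1421571_a_at, had the widest spread. It read 1936, 12509, 21592 and 15504 in expansions 1 to 4 and 13480, 13873, 8511 and 12061 in the partners. The 4 polyclonal samples were alike, at 11981 ± 2441 (SD, n = 4), and the alpha4-low expansions lay at or above that level. Expansion 1 was 6.96-fold below its partner and far below every other array. The alpha4-low log2 difference was 0.52 (95% interval -0.30 to 1.34), with 0.11 without pair 3, 0.85 without pair 2 and 0.079 with sort purity as a covariate. The difference between subclasses was 3.31 (SE 0.76), which ranked 109th of 22518 by p and did not pass (limma adjusted p = 0.167). It passed without the pairing (3.05, limma adjusted p = 0.0178) and without pair 3 (2.90, limma adjusted p = 0.00432), and had a limma adjusted p of 0.9998 with sort purity as a covariate (2.72). The fits without pair 3 and with sort purity leave fewer residual degrees of freedom than the 2 of the main fit. Their adjusted p values thus say little on whether the difference holds. The low value in expansion 1 comes from 1 array of 1 clone, and which of the genes it reflects cannot be told apart.

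**Figure D2:**
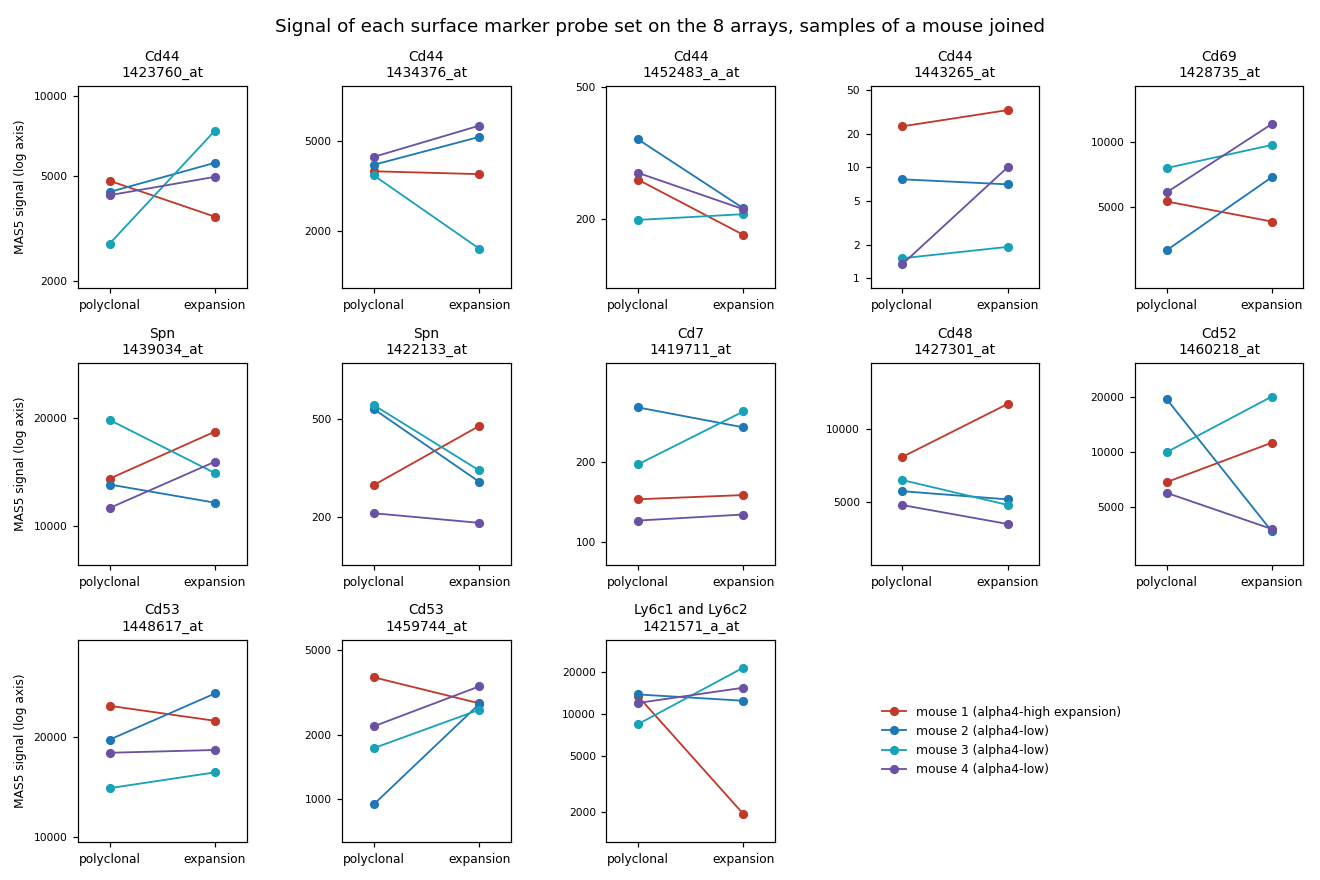
MAS5 signal (y axis, log scale, own range in each panel) of the 12 member probe sets and the probe set shared by Ly6c1 and Ly6c2 in polyclonal and expansion samples (x axis), with lines joining the samples of a mouse. Expansion 1 (red) stands apart at the shared Ly6c probe set, at 1936 against 8511 to 21592 on the other arrays, and is the highest array for Cd48 at 12782.

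Members did not rise and fall together over the arrays. Among the 66 pairs of the 11 tested probe sets and the shared Ly6c probe set, Pearson's r of log2 signal over the 8 arrays ranged from -0.87 to 0.68 with a median of -0.06, given as a description since the arrays are pairs from the same mice. The lowest, between Cd48 and the shared Ly6c probe set, was -0.39 without the array of expansion 1. The 2 Spn probe sets correlated at 0.58 and those of Cd53 at 0.36.

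For the 3 member genes with the widest range in their brightest probe set, the closest patterns among 18436 probe sets of other genes were also looked up. Nearest to Cd52 were H2ac19, Capzb and Kdm1a, with r from 0.985 to 0.992 over 8 arrays. Nearest to Cd69 were Nhlrc2, Fbxo11 and Hnrnpdl, with r from 0.974 to 0.979. Nearest to Cd48 were Prpf18, Plin2 and Sh3glb1, with r from 0.961 to 0.974. Such values are chosen as the highest of many over few arrays.

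Relatives of these molecules were followed in lists, by the brightest tested probe set of each gene. The background for the counts in all these lists is the share over all tested probe sets. In the alpha4-low pairs 55.5% were negative and 44.5% positive (median -0.07). For the difference between subclasses 54.3% were negative (median -0.10). CD48 binds members of the SLAM and CD2 family. In the list for Cd48, which also held the adaptor genes Sh2d1a and Sh2d2a, 8 of 9 tested genes had a negative difference between subclasses. The median was -1.77 beside -0.10 for all tested probe sets, and 0 passed. Sh2d1a, which encodes the SLAM adaptor SAP, had a signal of 13531 in expansion 1, against 3075 in polyclonal sample 1, and 1569, 1242 and 2116 in expansions 2 to 4 against 4433, 6311 and 2630. It was thus higher than its partner in the alpha4-high pair and lower than its partner in the 3 others. Its difference between subclasses was -3.52 (SE 0.89, limma adjusted p = 0.258). Slamf6, a SLAM receptor gene, had one of -3.78 (SE 0.98, limma adjusted p = 0.278). Cd244a, the gene of a receptor for CD48, had an alpha4-low difference of -1.37 (limma adjusted p = 0.939), with expansion 3 under background.

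Of 15 tested tetraspanin relatives of Cd53, 11 had a negative alpha4-low difference (median -0.17) and 9 a negative difference between subclasses (median -0.75); 0 passed in either. Cd82 had signals of 725 in expansion 1 and 152 in polyclonal sample 1, and its difference between subclasses was -3.71 (limma adjusted p = 0.278). Cd9 had -3.64 (limma adjusted p = 0.501) but was above background on only 5 of 8 arrays. Tspan9 ran the other way at 3.56 (limma adjusted p = 0.308), with expansion 1 under background at 20.7.

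The mucin-like and hyaluronan-binding list also held genes of other kinds, such as St6gal1, Gcnt1, Msn, Ezr, Rdx and Esrp2. It had 13 tested genes, 8 with a positive alpha4-low difference (median 0.04) and 0 past the threshold. St6gal1, a sialyltransferase gene, had a signal of 1063 in expansion 1, against 12641 in polyclonal sample 1, and 22494, 12415 and 9831 in expansions 2 to 4 against 11054, 5744 and 12560. Expansion 1 was the only low array. The difference between subclasses was 4.16 (SE 0.79, limma adjusted p = 0.0839). Hmmr is the gene of a hyaluronan receptor that is also a mitotic spindle protein. It was higher in all 4 pairs, by 1.23, 1.09, 1.57 and 0.31 on the log2 scale (background 4.79%). Its difference of 1.05 over all pairs (SE 0.34) did not pass (limma adjusted p = 0.9998). Neither did that in the alpha4-low pairs (limma adjusted p = 0.963). Gcnt1, whose enzyme builds the branched glycans of activated-type CD43, had a difference between subclasses of -2.66 (limma adjusted p = 0.739) and was above background on 5 arrays.

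The list for Cd69 held C-type lectin and S1P receptor genes, and also Cd40lg, Il2ra, Tfrc and Nr4a1. Of its 13 tested genes 8 had a negative alpha4-low difference (median -0.20) and 0 passed. The S1P receptor genes S1pr5 and S1pr4 differed by 1.38 and -1.12 in those pairs (limma adjusted p = 0.941 for both). S1pr5 had its widest gap in pair 3, at 16049 against 1351. Klrk1, the NKG2D gene, had a difference between subclasses of -2.29 (limma adjusted p = 0.549). The list for Cd38 held ectoenzyme genes, and also P2rx7, Nampt and Nadk. Of its 8 tested genes 6 had a negative alpha4-low difference (median -0.33) and 0 passed. Dpp4, the gene of the peptidase CD26, had an alpha4-low difference of -1.59 (limma adjusted p = 0.939). Entpd1, which encodes CD39, had a difference between subclasses of 1.91 (limma adjusted p = 0.708). P2rx7, an ATP-gated channel gene, had -0.78 in the alpha4-low pairs (limma adjusted p = 0.984). In the Ly6 and GPI-anchored list 7 of 20 genes were tested, 5 with a negative alpha4-low difference (median -0.59) and 0 past the threshold. Its genes with the smallest p were Ly6k (-1.08), Lynx1 (-1.01) and Cd59a (-0.90), each with signals of at most 237 on all arrays (limma adjusted p from 0.967 to 0.982).

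Of 27 tested genes for other memory and activation molecules, 18 had a negative alpha4-low difference (median -0.29), and 1 passed in the difference between subclasses. This was Klrg1, a receptor gene of terminally differentiated effector cells, at 3668 against 359 in pair 1 and 192 against 679, 142 against 1421 and 152 against 1168 in pairs 2 to 4. Its difference between subclasses was -5.99 (SE 0.88, limma adjusted p = 0.0472), the only call among the members and these lists. It did not pass with a pseudocount of 1 (limma adjusted p = 0.0543), with quantile normalization (0.0952) or without the intensity trend (0.237).

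**Figure D3:**
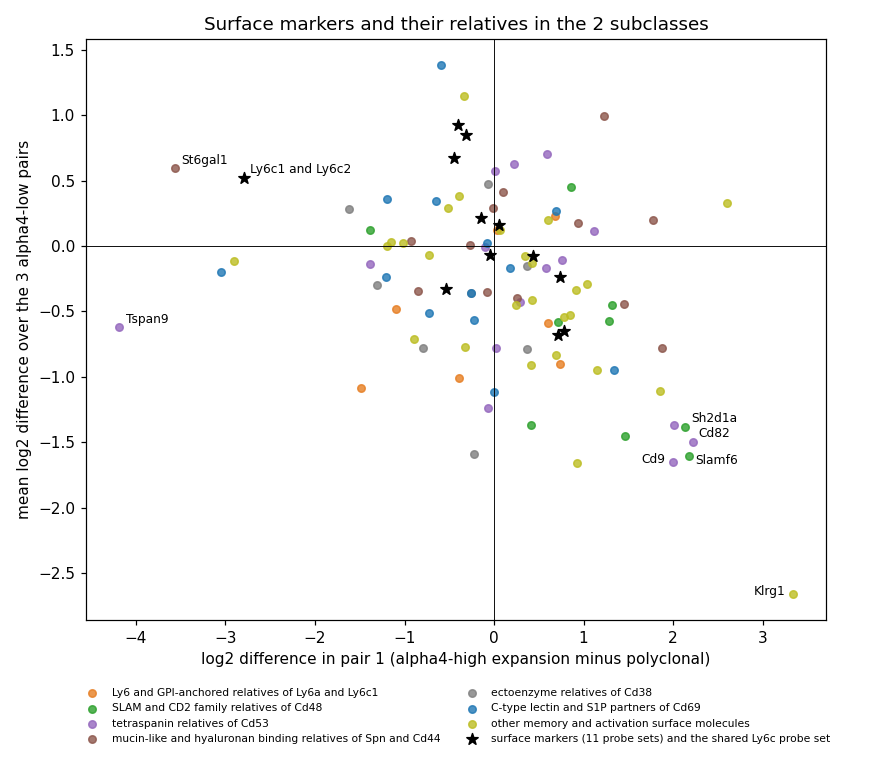
Log2 difference in the alpha4-high pair (x axis) against the mean log2 difference of the 3 alpha4-low pairs (y axis) for the tested genes of the lists (circles, by list) and the member probe sets (stars). Except for the shared Ly6c probe set, at -2.80 in pair 1, the stars lie within 1 log2 unit of 0 on both axes; Klrg1, at 3.34 in pair 1, lies farthest down and to the right.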

How the data were processed

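RNA of 8 samples was measured on Affymetrix whole-genome mouse expression arrays. The deposited table holds a linear intensity per probe set, made by the authors with MAS5 per the submitters' processing notes (version not given in the sources used here). The 2% trimmed mean is 500 on every array, and no further scaling was applied. Median signals were 46.5 to 75.1 and no arrays were identical (0 of 28 array pairs). Precision is limited by how few arrays there are. The scanner record of expansion 4 differs from the other 7, and its effect cannot be separated from that of the sample.

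The fit used log2(value + 5), so fold changes of dim probe sets are understated. The 64 control probe sets and those with a mean log2 value not above the median (a signal of about 45.3) were left out, which kept 22518. limma 3.58.1 in R 4.3.3 (lmFit, eBayes with an intensity trend) was fitted with mouse as a fixed block, once with 1 coefficient for all expansions and once with 1 per subclass, leaving 3 and 2 residual degrees of freedom. Fewer remained when an alpha4-low pair was left out or sort purity was added. Variances were moderated towards those of probe sets of like intensity, so SEs and intervals are not those of the pairs alone. All tests were two-sided, and p was adjusted by Benjamini-Hochberg over all tested probe sets and a threshold of 0.05. The pairing comes from the design, which takes the samples of a pair from the same mouse; deviations from group means correlated at 0.374, 0.0771, 0.214 and 0.338 within mice 1 to 4. The highest correlation with another mouse was -0.0986, 0.131, 0.301 and 0.0732, above the own-mouse value for mice 2 and 3.

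Background is the 95th percentile of 27 control probe sets for bacterial genes. By the platform annotation 34958 probe sets have 1 gene, 932 several and 9211 none. The members and lists were chosen with earlier results of these data known. All member probe sets are named, from each list the genes called or else the 3 with the smallest p in the alpha4-low pairs or the difference, and the 3 genes most like each of the 3 members with the widest range. The comparisons over all pairs and in the alpha4-low pairs were tried on data simulated with the fitted variances. The difference between subclasses was not checked in that way. Alternatives covered pseudocount, filter, scaling, variance trend, block, purity and each omitted pair, and the count of opposite directions was repeated under both scalings after the data were seen. The mice of a group are separate animals, with 1 array each.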

Additional observations from a re-analysis of the deposited data

Results flagged for a closer look

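The Klrg1 difference between subclasses, -5.99 on the log2 scale, was picked out because the test of the difference itself passed (limma adjusted p = 0.0472). It rests on 1 alpha4-high pair against 3 alpha4-low pairs. No member probe set met that criterion, and none of the 26 sets of 4 polyclonal values or pair differences had a value past Dixon's critical gap.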

How the results depend on the processing

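Over 488 recomputed single values of the member probe sets, the shared Ly6c probe set and Klrg1, 443 kept direction and side of the threshold and 32 reversed. No member passed in any alternative except Cd52 in the alpha4-low pairs without pair 3, so the number of members called ranged from 0 to 1 there when a pair was left out. The number of probe sets called depended strongly on the settings. In the alpha4-low pairs it went from 12 to 22 with the stricter filter, 6 with quantile normalization, 41 with median centring, 0 without the intensity trend (1097 at an unadjusted p under 0.05, limma) and 14 to 157 with a pair left out. For the difference between subclasses it went from 12 to 0 with a pseudocount of 1 (1541 unadjusted), 29 with a pseudocount of 32, 25 with no filter, 63 with the stricter filter, 0 with quantile normalization (1550), 70 with median centring, 0 without the trend (1572) and 64 to 277 with a pair left out. Over all pairs it was 0, or 0 to 14 with a pair left out, the 14 without pair 1.

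Without the replicate block, that is without the pairing by mouse, 0 probe sets passed in the alpha4-low pairs (621 unadjusted, limma) and 143 in the difference between subclasses, where the Cd44 probe set 1434376_at reversed to 0.054 and Cd53 1448617_at to -0.18. Quantile normalization moved Spn 1439034_at to -0.080, Cd48 to -0.028 and Cd53 1448617_at to -0.069 over all pairs, and Cd53 1448617_at to -0.031 in the alpha4-low pairs. Median centring moved Cd44 1434376_at to 0.22 in the difference between subclasses. The median difference between subclasses of all tested probe sets was -0.10, and 0.05 and 0.15 under these scalings. With sort purity as a covariate, the values over all pairs became -0.085 for Cd44 1423760_at, 0.21 for Cd44 1434376_at, 0.21 for Spn 1422133_at, -0.0015 for Cd53 1448617_at and 0.26 for Klrg1. In the alpha4-low pairs they became 0.71 for Cd44 1434376_at, 0.46 for Spn 1439034_at and -0.10 for Cd7. In the difference between subclasses they became 1.02 for Cd44 1434376_at, -0.019 for Cd44 1452483_a_at, 0.22 for Spn 1439034_at and -0.24 for Cd7. The cause of these reversals was not tested.

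With 1 pair left out, values over all pairs ranged from -0.23 to 0.27 for Cd44 1434376_at, -0.077 to 0.23 for Spn 1439034_at, -0.041 to 0.26 for Cd7, -0.24 to 0.12 for Cd48, -0.78 to 0.36 for Cd52 and -0.86 to 0.52 for the shared Ly6c probe set. In the alpha4-low pairs they ranged from -0.33 to 0.43 for Cd44 1434376_at, -0.33 to 0.13 for Spn 1439034_at, -0.086 to 0.36 for Cd7 and -1.53 to 0.18 for Cd52. In the difference between subclasses they ranged from -0.29 to 0.47 for Cd44 1434376_at and from -0.14 to 0.31 for Cd7. The alpha4-high subclass has 1 pair, so its own spread is unknown. Intervals of the members' alpha4-low differences reach about 1 log2 unit on either side. They rest on 2 residual degrees of freedom and on variance that limma borrows from other probe sets. They thus do not give the spread of the pairs alone. The SD of the alpha4-low pair differences ran from 0.12 for Cd48, with an SE of 0.36, to 1.70 for Cd52, with an SE of 0.52.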
